A study of Mus musculus with 18 samples.

Results

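The comparison described here set C2C12 cells that overexpress the spliced form of MUNC, a long noncoding RNA, against control C2C12 cells after 3 days in differentiation medium. It rests on 6 of 18 RNA-seq libraries, 3 per group. All genes that reached 0.5 FPM (fragments per 1000000) in at least 3 of the 18 libraries were tested, which kept 13869 of 35275 genes. Of the tested genes 196 would not have passed without the MUNC spliced libraries of the comparison, and 173 not without its control libraries. C2C12 is a mouse myoblast line, and the stock used here is called PAX7 NEG in the labels. The control cells are labelled wild-type. The other line is labelled MUNC spliced overexpressing, and the labels give neither its promoter nor whether it was 1 clone or a pool. Both groups were kept in high-glucose medium with 20% fetal bovine serum and then moved to 2% horse serum for 3 days. For the growth medium samples, used below for comparison, cells of the same lines were harvested before confluence in 20% serum. A line that overexpresses the genomic form of MUNC was also sequenced in both media. RNA was poly(A) enriched, and the labels give 3 biological replicates per group, with no word on how the cultures were separated. Groups were taken from the sample titles and the tissue label, which call all 6 libraries of the comparison myotubes, while another label field calls the control libraries myoblasts.

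MUNC is transcribed from the region upstream of Myod1, the gene of the transcription factor MyoD, and is known as an enhancer RNA of that locus. In muscle development MyoD and Myf5 commit cells to the muscle lineage, myogenin (Myog) then drives terminal differentiation, and the cells leave the cell cycle, switch on contractile proteins and fuse into multinucleated myotubes. C2C12 cells go through these steps when serum is withdrawn. MUNC is not listed by name in the expression table, so its overexpression was not checked here. Myod1 lies at chr7:46376474-46379099, plus strand, and Myog at chr1:134289989-134292548, plus strand, in the mm10 (GRCm38) build.

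The 6 libraries held 51816501 to 56114438 gene-assigned reads. Libraries of the same group correlated at r = 0.980 to 0.996 over the tested genes on the log2(FPM + 1) scale, and libraries of different groups at 0.932 to 0.953. Replicate 1 of the MUNC spliced line stood somewhat apart from replicates 2 and 3 (r = 0.985 and 0.980, against 0.993 between replicates 2 and 3), so calls were also made without it; a named gene said to have risen or fallen held without it unless the text says otherwise. Ribosomal protein genes took 2.69% to 3.36% of reads in the control libraries and 1.67% to 2.09% in the MUNC spliced libraries. The label "myotubes" was checked against muscle genes in the control libraries. Myf5 stood at 95, 109.9 and 105 FPM there, the intermediate filament gene Des at 64.2, 76.2 and 92 FPM and the acetylcholine receptor gene Chrna1 at 70.7, 120.5 and 101 FPM. Myod1, at 0.0768, 0 and 0.221 FPM, and Myog, at 0.192, 0.434 and 0.405 FPM, were close to 0, as was the fusion gene Mymk, at 0.0384, 0 and 0 FPM. The control libraries thus carried RNA of several muscle genes but almost none of Myod1, Myog and Mymk. In bulk RNA, fewer cells of a type and less RNA per cell cannot be told apart, and this holds for every difference below.

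Of the 13869 tested genes, 3088 (22.3%) were higher and 2913 (21%) lower in the MUNC spliced line at a limma adjusted p under 0.05, so 43.3% of the genes were called. The median difference over all tested genes was 0.01 on the log2 scale, and the DESeq2 normalization of the deposited values holds it near 0. With equal library sums 3391 genes were higher and 2610 lower, so the balance of the 2 directions depends on the scaling. A difference here is a mean of log2(FPM + 1), MUNC spliced minus control, and for genes of low level the added 1 makes it smaller than the true log2 ratio. At 7347 genes (53%) the 3 values of one group all lay above the 3 of the other. Among the called genes, 841 of the higher and 714 of the lower differed by at least 1 on that scale, and 231 and 153 by at least 2. The authors' deposited table, made with another test, lists 3111 higher and 2906 lower genes, and 5207 (86.8%) of the limma calls are also called there in the same direction, with 0 in the opposite one.

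Without replicate 1 of the MUNC spliced line 5331 genes were called. Of the 3088 higher genes 2573 (83.3%) were still called, and of the 2913 lower genes 2393 (82.1%). None of the 6001 called genes changed sign. Each of the 231 higher and 153 lower genes that differed by 2 or more was still called, as were 810 of 841 and 695 of 714 that differed by 1 or more. The calls that were lost, 515 and 520, were small ones: their median absolute difference was 0.44 in each direction, against 0.74 and 0.73 for those that held. A further 163 higher and 202 lower genes were called only without that library. Replicate 1 was the MUNC spliced library farthest from the control mean at 40.0% of the higher and 48.9% of the lower genes.

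**Figure D1:**
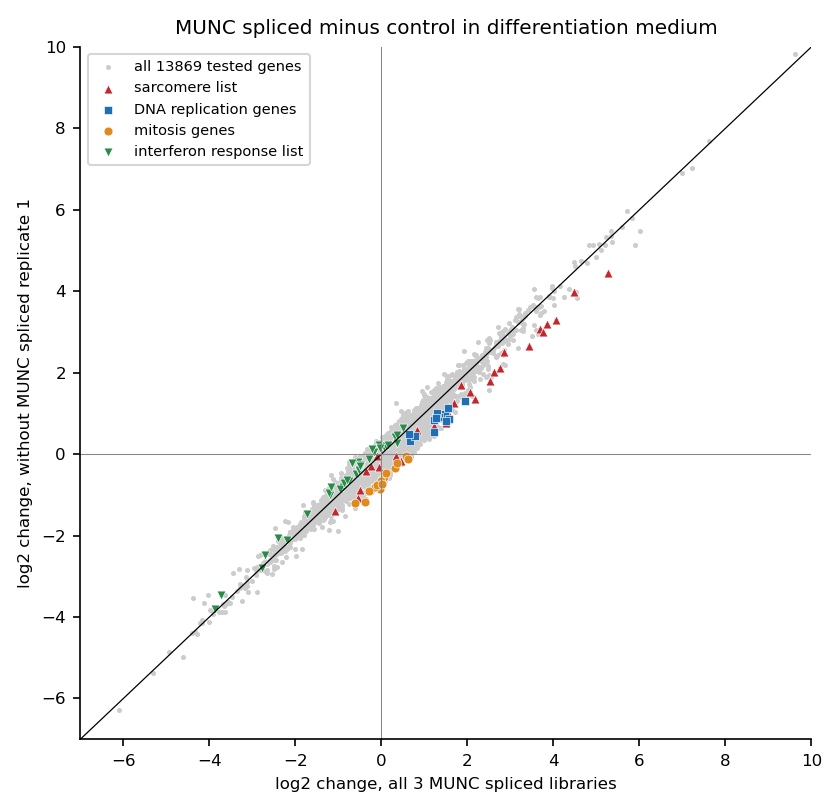
Each point is 1 tested gene, with the log2(FPM + 1) difference of MUNC spliced minus control from all 6 libraries on the x axis and without MUNC spliced replicate 1 on the y axis. Coloured symbols mark the sarcomere, interferon, DNA replication and mitosis genes described below. Points lie along the diagonal; most sarcomere, replication and mitosis genes lie below it, and the mitosis genes fall under 0 on the y axis.

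Among called genes with a group mean of at least 5 FPM that held without replicate 1, the 12 largest differences in each direction were singled out. Only genes whose groups did not overlap were taken, and predicted gene models were left out. Fndc1, a gene for a fibronectin type III domain protein, was at 0.0192, 0.0197 and 0 FPM in the control libraries and at 599, 822 and 1025 FPM in the MUNC spliced libraries. It was thus nearly absent from the first group and among the abundant transcripts of the second, a log2 difference of 9.62 (SE 0.22, limma adjusted p = 1.43e-14). Sema3c, a secreted semaphorin that guides axons and migrating cells, went from 0.192, 0.533 and 0.663 to 263, 300.4 and 296 FPM, with little spread within the MUNC spliced group. Its log2 difference was 7.63 (SE 0.45, limma adjusted p = 1.76e-09). Car3 encodes carbonic anhydrase 3, an abundant cytosolic enzyme of slow muscle and fat. It stood at 5.88, 8.66 and 5.78 FPM against 1520, 926 and 1064 FPM, 173-fold by the group means, with replicate 1 the highest (log2 difference 7.22, SE 0.65, limma adjusted p = 2.49e-07).

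Among the other genes that rose most were 4 that encode secreted or matrix proteins. Prelp, a leucine-rich proteoglycan, rose from 0.0576, 0.0395 and 0 to 146, 93.3 and 161 FPM, a log2 difference of 6.99. Ptx3, a pentraxin of innate immunity, rose from 0.903, 0.395 and 1.22 to 106, 69.9 and 141 FPM, a difference of 5.83. Bmp4, a growth factor that holds back muscle differentiation in the embryo, rose from 2.11, 1.26 and 1.73 to 87.9, 106 and 134 FPM, 64.2-fold by the means. In all 3 the groups were far apart and replicate 1 lay within or near the range of the other MUNC spliced libraries. Igf2 and Myog, also among the 12, are taken up with their groups below. Spry1, an inhibitor of receptor tyrosine kinase signalling, was listed at 0 or near 0 in the control libraries (0, 0.0789 and 0 FPM) and at 37.5, 55.5 and 71.3 FPM in the others. Nsg1, a gene for an endosomal protein best known in neurons, showed the tightest values, 0, 0.0197 and 0 against 47.9, 46.3 and 48.2 FPM. Trabd2b, whose product is a metalloprotease that inactivates Wnt proteins, went from 0.211, 0.237 and 0.387 to 50.1, 47.1 and 55.6 FPM. The last of the 12, Trdn, encodes triadin of the calcium release complex and rose from 12, 8.21 and 9.08 to 538, 469 and 333 FPM. Limma adjusted p-values for Prelp, Ptx3, Bmp4, Spry1, Nsg1, Trabd2b and Trdn lay between 2.45e-14 and 3.82e-06.

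L1cam, a neural cell adhesion molecule, fell most. Its level was 85.6, 94.3 and 115 FPM in the control libraries and 0.911, 0.174 and 0.344 FPM in the MUNC spliced libraries, a log2 difference of -6.09 (SE 0.24, limma adjusted p = 2.16e-11). The fall was 206-fold by the group means, and replicate 1 held slightly more than replicates 2 and 3. Gpr149, an orphan receptor gene, fell from 85.1, 41.2 and 47.8 to 0.532, 0.453 and 0.271 FPM (log2 difference -5.31, SE 0.28, limma adjusted p = 5.57e-10). Phex encodes an endopeptidase of bone and tooth mineralisation and fell from 180.3, 221 and 247 to 5.43, 7.02 and 5.82 FPM (log2 difference -4.93, SE 0.27, limma adjusted p = 9.62e-10). Sgce, epsilon-sarcoglycan of the dystrophin-associated complex, was nearly constant in the control libraries at 63.5, 63.9 and 64.2 FPM and was at 3.38, 1.03 and 1.08 FPM in the others (log2 difference -4.62, SE 0.26, limma adjusted p = 9.86e-10). For these 4 genes the lowest control value was more than 10 times the highest MUNC spliced value.

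Further genes on this side came from membrane transport, adhesion and metabolism. Abcb1b, a multidrug transporter, fell from 261, 265 and 282 to 15.8, 10.2 and 13.1 FPM. Itgb7, an integrin chain of leukocyte homing, fell from 97.2, 105 and 108 to 3.93, 4.81 and 3.20 FPM, and Perp, a desmosome-associated target of p53, from 22.9, 16.6 and 14 to 0.0190, 0.0174 and 0.0542 FPM. These were lower in all 3 libraries, with log2 differences of -4.29, -4.40 and -4.17. Acsbg1, an acyl-CoA synthetase, Kif21b, a kinesin, Bdkrb2, the bradykinin B2 receptor, and Plekhb1, a pleckstrin homology domain protein, fell by 4.17 to 4.33 on the log2 scale with limma adjusted p between 2.12e-10 and 3.04e-06.

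**Figure D2:**
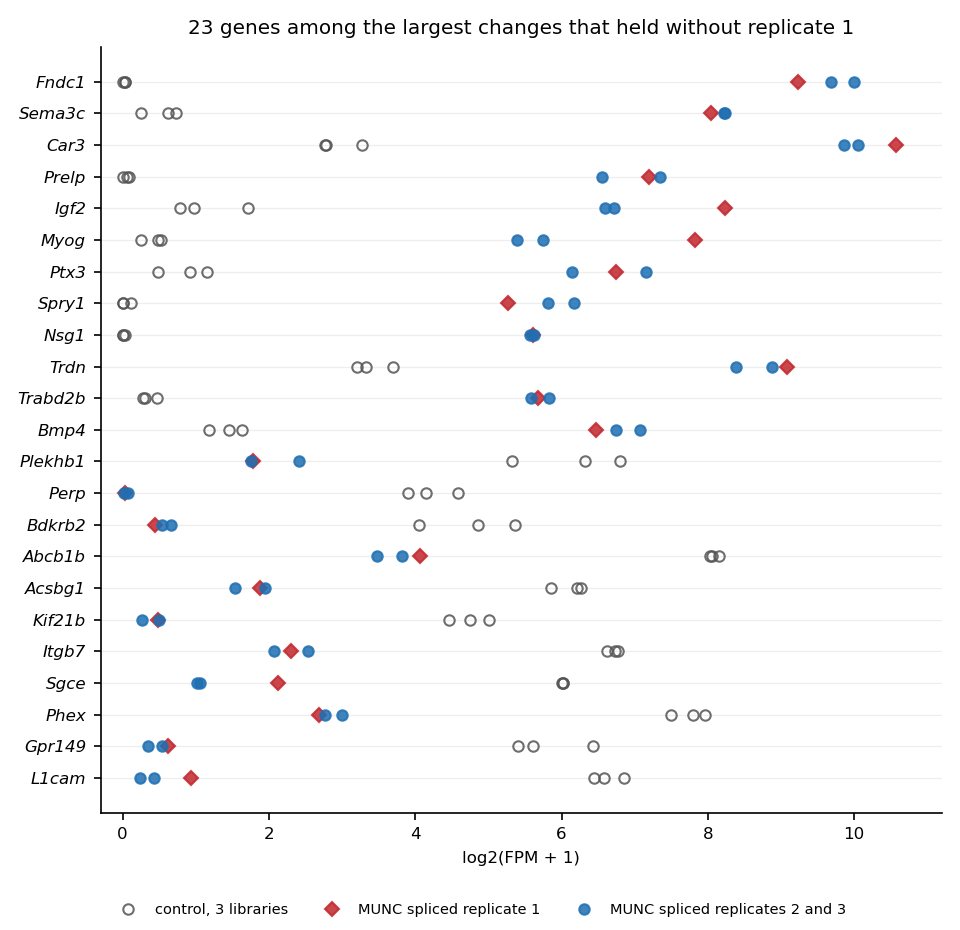
Values of log2(FPM + 1) in each of the 6 libraries for 23 genes among the largest differences that held: open circles are control libraries, diamonds MUNC spliced replicate 1 and filled circles replicates 2 and 3. For every gene shown the 3 MUNC spliced points lie on 1 side of the 3 control points, which was a condition for choosing these genes.

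The myogenic regulators include MyoD and its relatives, their Mef2, Eya and other partners and the receptors that act on them. Of the 24 genes listed 19 were tested, of which 5 were called higher and 3 lower, and all 8 calls held without replicate 1. The shares over all tested genes were 22.3% higher and 21% lower. With the replicate number as a block 5 of the listed genes were higher and 6 lower. The median of the 19 was 0.01, the same as that of all tested genes. Myod1 itself was at 0.0768, 0 and 0.221 FPM in control and 53.4, 16.4 and 16 FPM in MUNC spliced libraries, a difference of 4.52 (SE 0.41, limma adjusted p = 2.77e-07), and 3.97 without replicate 1. Replicate 1 held more than 3 times the level of the others, yet replicates 2 and 3 were also far above every control library. Myog showed the same order of libraries, 0.192, 0.434 and 0.405 FPM against 226, 52.6 and 41 FPM (log2 difference 5.90, SE 0.45, limma adjusted p = 4.08e-08; 5.15 without replicate 1). The upstream factor Myf5 did not differ beyond the spread, at 95, 109.9 and 105 against 125, 103 and 95.5 FPM, a difference of 0.05 (SE 0.17, limma adjusted p = 0.832).

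The partners of MyoD split. Eya4, a transcriptional coactivator of muscle genes, rose from 59, 71.4 and 57.9 to 169.6, 150.2 and 183 FPM (log2 difference 1.40, SE 0.15, limma adjusted p = 2.36e-06), and Mef2a, which binds muscle promoters with MyoD, rose by 0.93. Boc, a surface receptor that promotes differentiation through cadherin contacts, rose by 1.05. Its partner Neo1, a netrin receptor, fell from 229, 242 and 237 to 90.2, 105 and 122 FPM (log2 difference -1.16, SE 0.15, limma adjusted p = 1.57e-05), and Mef2d and Eya1 fell by 0.61 and 0.94 on the log2 scale. Six4, the E proteins Tcf3, Tcf4 and Tcf12, and the cell cycle inhibitor Cdkn1a had differences between -0.55 and 0.16 and did not pass the test. Myf6, Mef2c, Eya2 and Ankrd2 were below the filter, and Cdkn1c was listed at 0 reads in all 6 libraries.

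Genes that inhibit MyoD or mark muscle progenitors were listed separately, 14 of 19 tested. Of these 4 were called higher and 2 lower, beside 22.3% and 21% of all tested genes. Id2, a protein that sequesters the E protein partners of MyoD, was at 1.36, 0.888 and 0.866 FPM against 37.5, 35.6 and 22.1 FPM (log2 difference 3.98, SE 0.50, limma adjusted p = 1.08e-05), and Id3 at 21.3, 11.6 and 10.5 against 150.4, 163 and 115 FPM (log2 difference 3.27, SE 0.43, limma adjusted p = 1.55e-05). For both the lowest MUNC spliced value was over 5 times the highest control value. Id1 had 15.3, 8.94 and 8.56 against 39.3, 35.6 and 15 FPM and narrowly missed the threshold (log2 difference 1.31, SE 0.52, limma adjusted p = 0.0502), with MUNC spliced replicate 3 inside the control range. Heyl, a Notch target, rose by 2.09 and Cdh15, the M-cadherin of myoblasts, by 1.48 (51.6, 86.9 and 90.8 against 277, 188 and 172 FPM). Snai1 fell by 0.76 and Met, the receptor of hepatocyte growth factor, by 0.99. These 6 calls held without replicate 1, and the median of the 14 was 0.09, or -0.10 without it. Twist1 was listed at 0 reads, and Pax3, Pax7, Msc and Mdfi were below the filter.

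The sarcomere list had the largest median difference of the lists. Promoter windows from RefSeq, 250 bases before each start site, are shown for 3 that rose, since MyoD and myogenin bind E-boxes. The capitals mark CAGCTG, the E-box form searched for (it reads the same on both strands).

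Mybph: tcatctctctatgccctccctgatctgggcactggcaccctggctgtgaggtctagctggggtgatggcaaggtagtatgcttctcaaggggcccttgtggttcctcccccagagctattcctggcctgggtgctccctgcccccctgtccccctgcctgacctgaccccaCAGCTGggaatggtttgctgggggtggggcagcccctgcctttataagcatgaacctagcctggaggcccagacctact
Myl1: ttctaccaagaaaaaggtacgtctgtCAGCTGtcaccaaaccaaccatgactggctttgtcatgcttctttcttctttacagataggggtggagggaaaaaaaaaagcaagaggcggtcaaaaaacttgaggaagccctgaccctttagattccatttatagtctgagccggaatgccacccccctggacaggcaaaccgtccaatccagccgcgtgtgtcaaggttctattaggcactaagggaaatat
Mylpf: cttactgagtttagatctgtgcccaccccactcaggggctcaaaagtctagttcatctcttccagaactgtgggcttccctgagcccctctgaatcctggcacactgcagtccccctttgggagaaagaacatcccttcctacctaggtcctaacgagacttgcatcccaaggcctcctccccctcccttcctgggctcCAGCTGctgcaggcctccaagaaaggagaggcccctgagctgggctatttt

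These windows lie in GRCm38.p6 at chr1:134193198-134193447, plus strand; chr1:66945057-66945306, minus strand; and chr7:127211358-127211607, plus strand, each printed 5′ to 3′ on the gene's strand. The Mybph E-box lies at bases -79 to -74 from the start, that of Mylpf at -51 to -46 and that of Myl1 at -224 to -219. In windows of 300 bases that also take in 50 bases after the start, CAGCTG occurred in 37.8% of the 45 windows of 38 sarcomere genes on the list, against 16.3% of 32851 windows of all genes. The Mef2 core, CTA and TAG with any 4 bases between them and also its own reverse complement, was in 15.6% against 3.69%. Within the list the E-box was in 41.2% of 17 windows of genes called higher and 50% of 8 windows of genes not called, and the Mef2 core in 5.88% and 25%, so neither was more frequent in the genes that rose than in those not called. Among all genes called higher the E-box was in 16.2% of windows, near the share of all genes. A match describes letters in the window and shows no binding.

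Of 46 sarcomere genes 31 passed the filter. In the MUNC spliced line 21 of the 31 were called higher and 2 lower, beside 22.3% and 21% of all tested genes. All 23 calls held without replicate 1. The median difference was 1.54, and 1.01 without replicate 1, against 0.01 for all tested genes. Myh1 was among those that passed the filter only through the MUNC spliced libraries. Mybph, a myosin binding protein of early muscle fibres, was at 0, 0.0395 and 0.0553 FPM in control and 45.1, 13.6 and 17.5 FPM in MUNC spliced libraries (log2 difference 4.49, SE 0.32, limma adjusted p = 1.91e-08). Myl1, the essential light chain of fast fibres, was at 0.0192, 0.217 and 0.0921 against 32.4, 5.58 and 12 FPM (log2 difference 3.68, SE 0.39, limma adjusted p = 1.40e-06). Mylpf, the regulatory light chain, was at 1.86, 4.66 and 3.54 against 159.8, 30.01 and 35.1 FPM (log2 difference 3.75, SE 0.49, limma adjusted p = 1.50e-05). In each gene the control libraries were at or near the bottom and replicate 1 held at least 2 times what either other MUNC spliced library held, while those other libraries still cleared every control value.

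The embryonic myosin heavy chain Myh3 followed that pattern, at 0.461, 0.375 and 0.497 against 177, 24.2 and 37.9 FPM (log2 difference 5.28, SE 0.48, limma adjusted p = 3.18e-07; 4.44 without replicate 1). So did the actins. Skeletal Acta1 was at 5.68, 3.95 and 3.43 against 249.9, 35.4 and 72.9 FPM (log2 difference 4.06, SE 0.59, limma adjusted p = 4.30e-05), and cardiac Actc1, expressed in immature muscle, at 0.0192, 0.0197 and 0 against 35.7, 5.32 and 12.4 FPM (log2 difference 3.85, SE 0.38, limma adjusted p = 7.02e-07). The giant proteins titin (Ttn) and nebulin (Neb), which set filament length, rose by 3.44 and 2.63. Ttn stood at 1.79, 4.89 and 3.89 FPM against 139, 21.8 and 31.2 FPM. Troponin genes of both fibre types were among the rises, with Tnnt3 and Tnni2 of fast fibres at 2.75 and 2.05, and Tnni1 and Tnnc1 of slow fibres at 2.53 and 1.51. The myosin chaperone gene Unc45b rose by 1.22 and Smyd1 by 1.51.

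Not every sarcomere gene rose. Ldb3, a Z-disc protein, fell from 60.1, 74.4 and 72.5 to 49.8, 26.6 and 24 FPM (log2 difference -1.09, SE 0.24, limma adjusted p = 0.00168), and the tropomyosin gene Tpm3, which nonmuscle cells also use, fell by 0.36. Des had 64.2, 76.2 and 92 against 94.4, 37.3 and 44.7 FPM and did not pass the test (log2 difference -0.50, SE 0.34, limma adjusted p = 0.255), although without replicate 1 it was called lower at -0.89 (limma adjusted p = 0.0358). The fast and slow adult myosins Myh2, Myh4 and Myh7, the telethonin gene Tcap and 10 more of the list were below the filter, and Myl2 was listed at 0 reads. The summed level of all listed genes was 2236 to 2700 FPM in control libraries, and 3977, 2406 and 2056 FPM in MUNC spliced replicates 1, 2 and 3, so the sum, which abundant genes such as tropomyosins dominate, was above the control range in replicate 1 only.

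**Figure D3:**
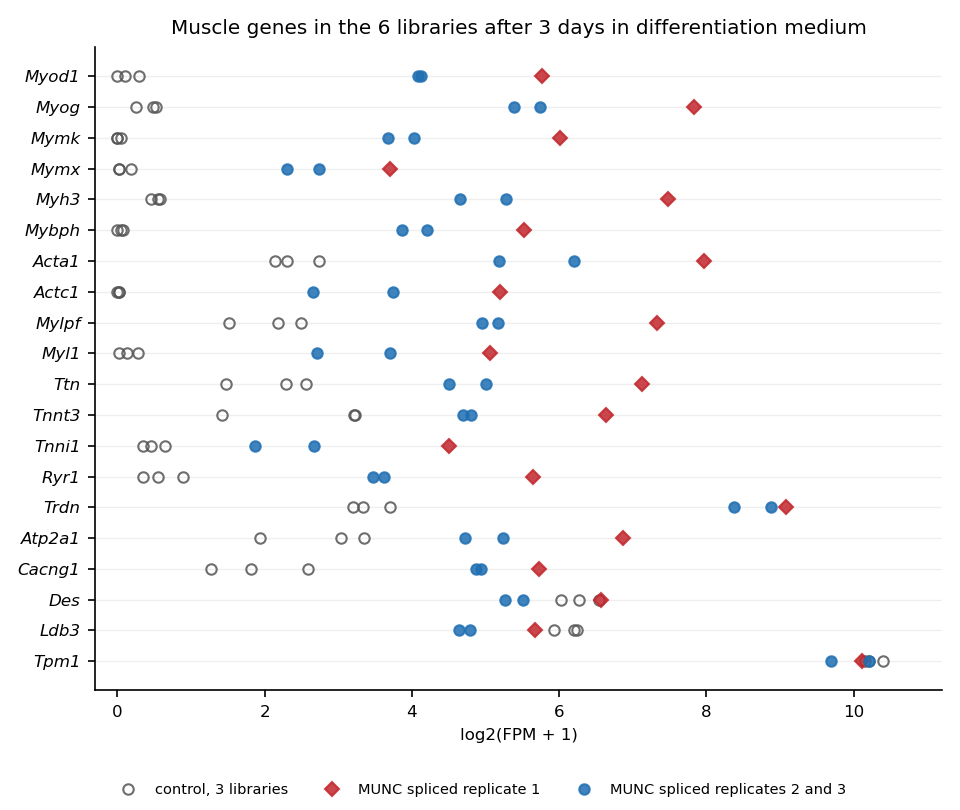
Values of log2(FPM + 1) of 20 muscle genes in the 6 libraries: open circles are control libraries, diamonds MUNC spliced replicate 1 and filled circles replicates 2 and 3. For all genes but Des, Ldb3 and Tpm1 the MUNC spliced libraries lie above the control libraries, with replicate 1 highest.

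Genes of excitation-contraction coupling link the membrane signal to calcium release. Of 22 listed 20 passed the filter, and 11 were called higher and 2 lower, beside 22.3% and 21% of all tested genes. Without replicate 1, 10 and 2 of them held, 4 genes were called lower in all, and the list median went from 0.97 to 0.54. Ryr1, the calcium release channel, was at 0.269, 0.848 and 0.461 against 48.9, 10.1 and 11.3 FPM (log2 difference 3.65, SE 0.39, limma adjusted p = 1.65e-06). Cacng1, a subunit of the voltage sensor, was at 1.42, 2.51 and 5.05 against 51.7, 29.8 and 28.3 FPM (log2 difference 3.29, SE 0.29, limma adjusted p = 2.40e-07). Atp2a1, the calcium pump of fast fibres, was at 2.84, 7.20 and 9.23 against 116, 25.3 and 36.8 FPM (log2 difference 2.83, SE 0.44, limma adjusted p = 8.17e-05). Again replicate 1 was the highest, by a factor of more than 1.5 in each of the 3, and no MUNC spliced value fell within the control range. Casq2, Srl, Stac3, Hrc, Casq1 and the pore subunit Cacna1s rose by 1.14 to 2.44. The voltage sensor subunit Cacnb1 rose by 0.81 and was the call lost without replicate 1. The chloride channel Clcn1 fell from 5.43, 5.09 and 5.21 to 0.551, 0.348 and 0.416 FPM (log2 difference -2.12, SE 0.12, limma adjusted p = 1.75e-09), and Jph2 fell by 0.55. Ryr3 was at or under 0.127 FPM in all 6 libraries.

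The fusion genes included both proteins known to drive myoblast fusion. Myomaker (Mymk) was at 0.0384, 0 and 0 FPM in control and 63.7, 11.8 and 15.3 FPM in MUNC spliced libraries (log2 difference 4.56, SE 0.39, limma adjusted p = 1.73e-07), and myomixer (Mymx) at 0.0192, 0.138 and 0.0184 against 12, 5.65 and 3.94 FPM (log2 difference 2.83, SE 0.28, limma adjusted p = 7.91e-07). The groups did not overlap, and only replicate 1 exceeded 20 FPM of Mymk. Of 16 genes of fusion and membrane repair 12 were tested, and 7 were called higher and 2 lower, beside 22.3% and 21% of all tested genes. All 9 calls held without replicate 1, and the list median was 0.82, and 0.92 without it. The repair genes Trim72 and Dysf rose by 1.91 and 1.30, and the adhesion molecule Ncam1 by 1.31. The interleukin 4 receptor Il4ra, which takes part in recruiting myoblasts to myotubes, fell from 66.5, 102 and 137 to 30.4, 41.3 and 38.7 FPM (log2 difference -1.39, SE 0.24, limma adjusted p = 2.22e-04), and Jam2 fell as well.

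At the neuromuscular synapse the direction was mixed: 4 of 10 tested genes were called higher and 4 lower, beside 22.3% and 21% of all tested genes. The receptor subunits moved apart. Chrna1 rose from 70.7, 120.5 and 101 to 362, 199 and 164 FPM (log2 difference 1.25, SE 0.28, limma adjusted p = 0.0016), whereas Chrnb1 fell from 70.8, 77.4 and 72.2 to 46.8, 28.9 and 22.5 FPM (log2 difference -1.21, SE 0.25, limma adjusted p = 9.16e-04) and Chrnd from 74.7, 128 and 153 to 58.7, 19.3 and 19.1 FPM (log2 difference -1.98, SE 0.47, limma adjusted p = 0.00275). The agrin receptor Lrp4 rose from 78, 107 and 120.2 to 389, 374 and 284 FPM (log2 difference 1.78, SE 0.21, limma adjusted p = 5.93e-06), and its kinase partner Musk from 0.442, 0.395 and 0.608 to 3.95, 3.05 and 3.67 FPM (log2 difference 1.62, SE 0.17, limma adjusted p = 1.27e-06). Dok7, the adaptor of that kinase, rose by 1.36 and passed the filter only through the MUNC spliced libraries. Agrn itself fell by 0.65, a call lost without replicate 1, and Ache by 0.69.

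Muscle metabolism genes went against the contractile genes in count, with 4 of 15 tested higher and 7 lower. The shares over all tested genes were 22.3% and 21%. Besides Car3, the creatine kinases rose. Ckm, the muscle form, was at 0.0384, 0.0395 and 0.0553 against 5.05, 0.732 and 2.15 FPM (log2 difference 1.62, SE 0.32, limma adjusted p = 6.94e-04), and Ckb, the brain form, at 1.36, 1.64 and 2.54 against 6.99, 7.88 and 4.23 FPM (log2 difference 1.36, SE 0.34, limma adjusted p = 0.00446). Ppargc1a, a coactivator of mitochondrial biogenesis, fell from 13.9, 10.5 and 11.9 to 0.228, 0.139 and 0.127 FPM (log2 difference -3.48, SE 0.11, limma adjusted p = 1.39e-12), without overlap. Glycolytic and glycogen enzymes (Eno3, Hk2, Gys1, Pfkm, Phkg1) and the adenylate kinase Ak1 fell by 0.44 to 0.80. Cox6a2 rose by 1.16, a call lost without replicate 1, and it passed the filter only through MUNC spliced libraries, as Ppargc1a did only through control libraries. The 13 mitochondrially encoded genes were listed at 0 in every library and say nothing about that genome.

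In the dystrophin complex, which ties the cytoskeleton to the matrix, 3 of 11 tested genes were called higher and 2 lower, shares near the 22.3% and 21% of all tested genes, and all 5 held. The muscle-specific alpha sarcoglycan gene Sgca rose from 0.711, 1.16 and 2.03 to 7.40, 4.76 and 3.13 FPM (log2 difference 1.39, SE 0.30, limma adjusted p = 0.00146). The broadly expressed epsilon form, Sgce, fell as given above, and Sgcd fell by 0.78. Dmd itself was below the filter.

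Cell cycle genes depended on replicate 1, and DNA replication and mitosis genes were taken as 2 groups. The split into these 2 groups was made after the values were seen, so the number of members called in each may follow from the grouping. All 14 tested DNA replication genes were called higher, beside 22.3% of all tested genes, with a median of 1.28. Of the 14, 9 were still called without replicate 1, where the median was 0.87. Over all tested genes 18.6% were called higher and held. Mcm5, a subunit of the replicative helicase, was at 13.5, 4.26 and 6.89 FPM in control and 77.8, 24.4 and 15.9 FPM in MUNC spliced libraries (log2 difference 1.94, SE 0.45, limma adjusted p = 0.00227; 1.29 without replicate 1). Mcm4 of the same helicase was at 35.8, 21.9 and 21.9 against 141, 60.5 and 55.4 FPM (log2 difference 1.56, SE 0.28, limma adjusted p = 3.42e-04), and Rrm2, which makes deoxynucleotides, at 25.1, 13.9 and 15 against 144, 35.7 and 29.1 FPM (log2 difference 1.56, SE 0.43, limma adjusted p = 0.00805). Ccne2, the cyclin of entry into S phase and no member of the 14, was at 5.59, 2.58 and 2.78 against 35.6, 13.4 and 8.34 FPM (log2 difference 1.93, SE 0.38, limma adjusted p = 6.12e-04). Replicate 1 was the highest library in all 4 of these genes, and replicates 2 and 3 also lay above every control value. Pcna, Gins2, Cdc6, Cdt1 and Uhrf1 were the 5 calls lost.

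None of the 19 mitosis genes was called by limma or by edgeR in the full comparison, with a median of -0.02. At an unadjusted p under 0.05 limma had 0 of them on either side, and DESeq2 on the recovered reads called 1 higher, Cdk1. Without replicate 1, 0 were higher and 13 lower, with a median of -0.75. Over all tested genes 19.7% were higher and 18.7% lower without that library. Mki67, the proliferation marker, was at 83.7, 47.8 and 73.5 FPM in control and 192, 42.3 and 49.3 FPM in MUNC spliced libraries, so that replicate 1 lay above all control libraries and replicates 2 and 3 near or below the lowest. Its difference was 0.15 (SE 0.39, limma adjusted p = 0.784) and turned to -0.53 (limma adjusted p = 0.063) without replicate 1. Top2a, the topoisomerase of dividing cells, was at 183, 93.9 and 118 against 455, 97.3 and 97.3 FPM, a difference of 0.36 (SE 0.41, limma adjusted p = 0.507) that turned to -0.38 (limma adjusted p = 0.186). Ccnb1, the mitotic cyclin, was at 21.3, 11.9 and 15 against 40.00, 9.95 and 9.65 FPM and was called lower without replicate 1 at -0.62 (limma adjusted p = 0.0175).

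Library by library, the median of the 14 replication genes above the control mean was 2.12 in MUNC spliced replicate 1, 0.99 in replicate 2 and 0.73 in replicate 3. For the 19 mitosis genes the same medians were 1.30, -0.74 and -0.71. Control replicate 1 was itself above the control mean in both groups, at 0.51 and 0.42. Replicate 1 of the MUNC spliced line was thus the library with the highest level of Myod1, Myog, contractile genes and cell cycle genes together. Over the whole list of 42 cell cycle genes, 15 were called higher and 0 lower, beside 22.3% and 21% of all tested genes. Without replicate 1, 10 were higher and 15 lower, beside 19.7% and 18.7% of all tested genes.

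**Figure D4:**
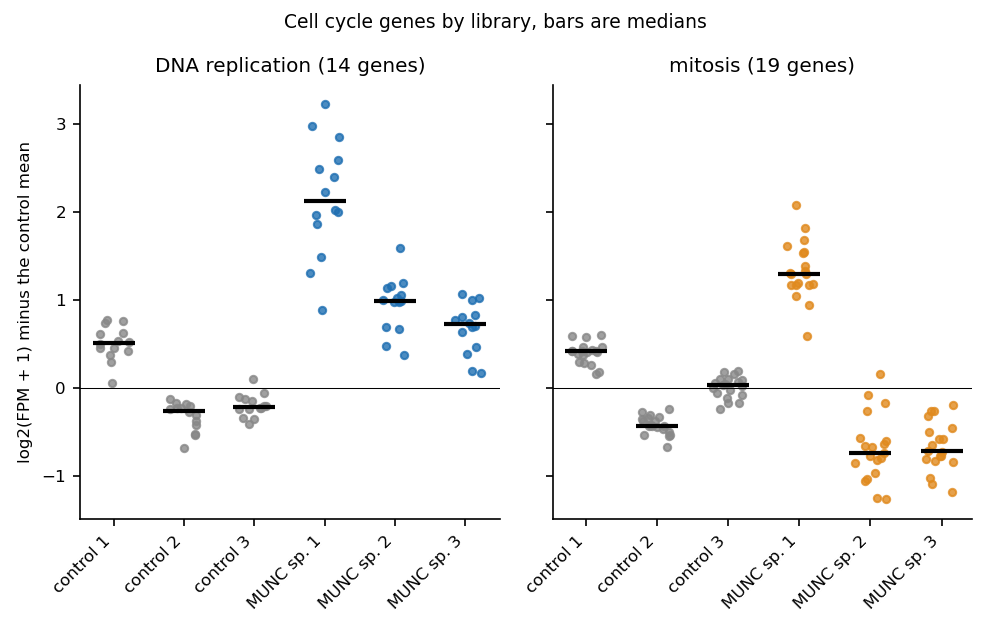
Difference of each gene from the control mean, in log2(FPM + 1), in each of the 6 libraries, for 14 DNA replication genes (left) and 19 mitosis genes (right); points are genes and bars are medians. The replication genes are above 0 in all 3 MUNC spliced libraries, while the mitosis genes are above 0 in replicate 1 and, except 1 gene in replicate 2, below it in replicates 2 and 3. Both groups were drawn after the values were seen.

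Growth factor genes held several of the largest differences. Of 50 listed 45 were tested, with 18 called higher and 9 lower, beside 22.3% and 21% of all tested genes. Without replicate 1, 17 and 7 of these calls held. Igf2, a growth factor that promotes differentiation in C2C12 cells, was at 0.730, 0.967 and 2.28 FPM in control and 299, 95.2 and 104 FPM in MUNC spliced libraries, 125-fold by the means (log2 difference 6.02, SE 0.46, limma adjusted p = 3.72e-08; 5.49 without replicate 1). Igf1, which signals through the same receptor, was at 3.80, 0.730 and 0.424 against 42.3, 42.7 and 71.5 FPM (log2 difference 4.50, SE 0.51, limma adjusted p = 3.49e-06). The scavenging receptor Igf2r fell by 1.54, while the signalling receptor Igf1r, at -0.19, did not pass the test. Of the binding proteins Igfbp3, Igfbp5 and Igfbp7 rose, by 3.06, 2.28 and 1.86, and Igfbp6 fell by 1.87.

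In the TGF-beta family Bmp4 and Tgfb2 rose, the latter from 14.4, 17.6 and 14.8 to 126, 92.9 and 127 FPM (log2 difference 2.80, SE 0.22, limma adjusted p = 5.56e-08), and so did follistatin (Fst), an inhibitor of myostatin and activin, by 2.88. Mstn itself was listed at 0 reads. In Wnt signalling Rspo3, an agonist of the pathway, rose from 0.0960, 0.0395 and 0 to 14.9, 14.2 and 14.4 FPM (log2 difference 3.89, SE 0.22, limma adjusted p = 1.10e-09) and the target gene Axin2 from 0.672, 0.829 and 0.958 to 6.51, 5.92 and 10.6 FPM (log2 difference 2.22, SE 0.23, limma adjusted p = 1.29e-06). The Wnt inhibitor Dkk2 fell from 9.81, 16.1 and 29.7 to 0.380, 0.889 and 2.22 FPM (log2 difference -3.13, SE 0.33, limma adjusted p = 1.52e-06). Hgf, the ligand of Met and an activator of satellite cells, fell from 86.6, 95 and 119 to 8.92, 6.01 and 5.59 FPM (log2 difference -3.70, SE 0.26, limma adjusted p = 1.55e-08). None of these genes had overlapping groups. The Notch ligands Dll1 and Jag1 rose by 1.75 and 1.13 while Jag2 fell by 1.37, and the 3 Notch receptors tested, between -0.42 and -0.19, did not pass.

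Axon guidance genes, which also steer migrating muscle and endothelial cells, moved in both directions, 13 of 35 higher and 12 lower, with 12 and 11 holding. The shares over all tested genes were 22.3% and 21%. Among the semaphorins Sema3d rose from 11, 15.2 and 14 to 557, 722 and 354 FPM (log2 difference 5.19, SE 0.45, limma adjusted p = 1.65e-07) and Sema6a from 2.13, 2.49 and 2.73 to 108, 57.5 and 55.6 FPM (log2 difference 4.37, SE 0.31, limma adjusted p = 1.66e-08), beside Sema3c. Sema5a fell from 394, 411 and 399 to 47.5, 98.8 and 95.3 FPM (log2 difference -2.37, SE 0.34, limma adjusted p = 4.19e-05), Sema7a fell by 1.85 and Sema3b by 0.70. Sema3a, at 209, 304 and 253 against 285, 307 and 237 FPM, overlapped between the groups (log2 difference 0.12, SE 0.19, limma adjusted p = 0.626). The repellent Slit2 and its receptor Robo1 both rose, by 2.10 and 2.67. The netrin receptor Unc5c fell from 57.1, 57.4 and 55.7 to 3.55, 2.77 and 4.36 FPM (log2 difference -3.68, SE 0.36, limma adjusted p = 7.50e-07), while netrin itself, Ntn1, rose by 1.17.

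Collagens and other matrix genes, 42 of 45 tested, had 17 called higher and 10 lower, with 15 and 10 holding. The shares over all tested genes were 22.3% and 21%. Postn, periostin of healing and growing tissue, rose from 121, 100.1 and 73.4 to 1011, 1280 and 1529 FPM (log2 difference 3.69, SE 0.32, limma adjusted p = 1.95e-07). Col6a2 rose from 57, 21.6 and 40.1 to 328, 349 and 605 FPM (log2 difference 3.45, SE 0.48, limma adjusted p = 2.72e-05) and Col12a1 from 112, 104 and 152 to 766, 595 and 919 FPM (log2 difference 2.62, SE 0.27, limma adjusted p = 1.25e-06). In Postn replicate 1 was the lowest of the 3 MUNC spliced libraries and so the nearest to control. The basement membrane gene Nid2 rose from 96.3, 92.8 and 125 to 649, 662 and 689 FPM (log2 difference 2.67, SE 0.34, limma adjusted p = 1.18e-05), while its relative Nid1 fell by 1.20 and the basement membrane collagens Col4a1, Col4a2 and Col18a1 fell by 0.54, 0.53 and 2.48. Mmp2, a gelatinase, fell from 68.9, 128 and 162 to 23.2, 31 and 37.1 FPM (log2 difference -1.88, SE 0.24, limma adjusted p = 1.34e-05), and its inhibitors Timp2 and Timp3 rose by 0.94 and 1.80. Col3a1, at 0.77, did not pass the test.

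The interferon response genes fell in part. The capitals in the promoter windows of 3 of them mark the interferon response core, GAAA and GAAA with any 2 bases between them, or TTTC and TTTC where it is on the other strand, and the windows are shown because Rsad2 and Oas3 fell while Ifit1 did not pass the test.

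Rsad2: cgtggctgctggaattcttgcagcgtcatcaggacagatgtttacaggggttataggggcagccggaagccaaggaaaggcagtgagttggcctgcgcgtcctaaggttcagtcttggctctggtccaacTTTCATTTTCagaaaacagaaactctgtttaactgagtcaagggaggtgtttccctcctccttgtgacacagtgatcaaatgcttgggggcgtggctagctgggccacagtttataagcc
Oas3: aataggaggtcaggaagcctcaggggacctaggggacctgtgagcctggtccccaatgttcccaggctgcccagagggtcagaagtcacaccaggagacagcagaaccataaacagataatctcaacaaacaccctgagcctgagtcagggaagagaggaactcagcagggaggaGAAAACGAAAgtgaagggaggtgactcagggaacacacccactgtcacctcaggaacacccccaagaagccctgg
Ifit1: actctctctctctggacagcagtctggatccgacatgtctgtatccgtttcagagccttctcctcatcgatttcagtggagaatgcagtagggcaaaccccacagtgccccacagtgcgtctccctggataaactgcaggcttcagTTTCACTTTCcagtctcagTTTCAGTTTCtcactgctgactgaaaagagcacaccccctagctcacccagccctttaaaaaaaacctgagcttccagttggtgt

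Their positions in GRCm38.p6 are chr12:26456453-26456702, minus strand; chr5:120777660-120777909, minus strand; and chr19:34640639-34640888, plus strand, and each is printed 5′ to 3′ on the gene's strand. The core was at bases -120 to -111 in Rsad2, at -75 to -66 in Oas3, and began at -104 and -85 in Ifit1. Over 300-base windows it occurred in 58.1% of the 31 windows of 26 interferon genes and in 3.44% of all windows. Within the list it was in 41.7% of 12 windows of genes called lower and in 68.4% of 19 windows of genes not called.

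All 36 listed interferon genes were tested. None was called higher, 10 were called lower, and 8 of the 10 held without replicate 1, Irf7 and Irf1 being lost. Over all tested genes 21% were called lower. At an unadjusted p under 0.05 limma had 0 higher and 12 lower, and on the recovered reads edgeR called 0 higher and 10 lower and DESeq2 0 higher and 9 lower. The median was -0.53, and -0.38 without replicate 1. Ccl5, a chemokine, fell from 312, 273 and 199.7 to 15.1, 18.2 and 17 FPM (log2 difference -3.87, SE 0.31, limma adjusted p = 7.44e-08). Rsad2, the antiviral enzyme viperin, fell from 207, 114 and 76.7 to 5.33, 17.8 and 5.68 FPM (log2 difference -3.73, SE 0.48, limma adjusted p = 1.34e-05), Oasl1 from 38.4, 27.7 and 23.7 to 3.59, 3.64 and 3.13 FPM (log2 difference -2.77, SE 0.28, limma adjusted p = 8.05e-07) and Oas3 from 262, 276 and 256 to 28.3, 55.6 and 39.6 FPM (log2 difference -2.71, SE 0.45, limma adjusted p = 1.51e-04). In these 4 genes no MUNC spliced value reached the control range, and control replicate 1 was the highest or close to the highest library. Some other genes of the same response did not pass the test. Isg15 was at 587, 403 and 377 against 256, 359 and 286 FPM, without overlap (log2 difference -0.59, SE 0.43, limma adjusted p = 0.285). Ifit1 was at 986, 527 and 382 against 368, 650.2 and 567 FPM, with overlapping values (log2 difference -0.18, SE 0.60, limma adjusted p = 0.833). Ifi44 was at 1341, 945 and 709 against 331, 506 and 454 FPM, also without overlap, yet its difference of -1.19 (SE 0.66, limma adjusted p = 0.163) did not pass. The authors' deposited table lists Isg15 and Ifi44 as lower (DESeq2 adjusted p = 0.0211 and 1.69e-05). With the replicate number as a block, 14 interferon genes were called lower and 0 higher, and in a fit of only the 6 compared libraries 17 lower and 1 higher.

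Of 11 antigen presentation genes, 1 was called higher and 3 lower, the latter near the 21% of all tested genes. The class I light chain B2m was at 2712, 2883 and 2157 against 1236, 2187 and 1714 FPM (log2 difference -0.62, SE 0.21, limma adjusted p = 0.0248) and Tap1, the peptide transporter, at 56.8, 42.8 and 42.9 against 21.9, 33.1 and 30.8 FPM (log2 difference -0.72, SE 0.27, limma adjusted p = 0.0421), and both calls were lost without replicate 1. H2-D1 fell by 0.67 and held. H2-K1 was at 341, 357 and 329 against 246, 373 and 333 FPM, with overlapping groups (log2 difference -0.13, SE 0.17, limma adjusted p = 0.573; 0.04 without replicate 1). These class I genes are close relatives whose reads may be shared. Psmb8, an immunoproteasome subunit, rose from 4.46, 1.62 and 1.46 to 5.20, 11.8 and 6.27 FPM (log2 difference 1.35, SE 0.26, limma adjusted p = 5.87e-04).

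Markers of other cell types were low or mixed. The neuron markers summed to 22.6 to 28.1 FPM in control and 6.44 to 18.7 FPM in MUNC spliced libraries, and limma called 0 of 6 tested higher and 3 lower, with 0 higher at an unadjusted p under 0.05. On the recovered reads edgeR and DESeq2 each called 1 higher, Map2, and 4 lower. Of these, the neurofilament genes Nefl and Nefm fell from 18.1, 11.1 and 14.2 to 0.342, 0.261 and 0.0362 FPM and from 2.90, 4.14 and 4.46 to 0, 0.0348 and 0 FPM. Among adipocyte markers Cebpa rose from 1.96, 1.76 and 3.11 to 13.6, 14.4 and 13.4 FPM (log2 difference 2.20, SE 0.28, limma adjusted p = 9.92e-06) and Pparg by 0.80, Fabp4 fell by 1.09, and Adipoq was listed at 0. Of the keratinocyte markers, Krt14 rose from 0.499, 0.454 and 0.332 to 35.1, 8.80 and 10.7 FPM (log2 difference 3.49, SE 0.47, limma adjusted p = 1.89e-05), with replicate 1 highest, and Krt8 fell by 0.61, while Krt5, Cdh1 and Epcam were below the filter. Macrophage markers summed to 2.67 to 5.08 FPM in control and 0.854 to 1.61 FPM in MUNC spliced libraries, with Cd68 lower and Adgre1 listed at 0. Endothelial markers summed to under 2 FPM in all 6 libraries, and Tek rose by 0.99. Smooth muscle markers, some of which immature skeletal muscle also expresses, had 1 of 6 tested higher and 2 lower. Acta2 was at 1297, 1249 and 1155 against 3036, 1830 and 1875 FPM (log2 difference 0.83, SE 0.24, limma adjusted p = 0.00966), a call lost without replicate 1, and Cnn1 fell from 7.16, 6.96 and 4.96 to 1.35, 0.279 and 0.0542 FPM (log2 difference -2.31, SE 0.34, limma adjusted p = 5.16e-05). The bone transcription factor Runx2 did not pass the test at -0.19, and the cartilage factor Sox9 fell by 0.77.

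**Figure D5:**
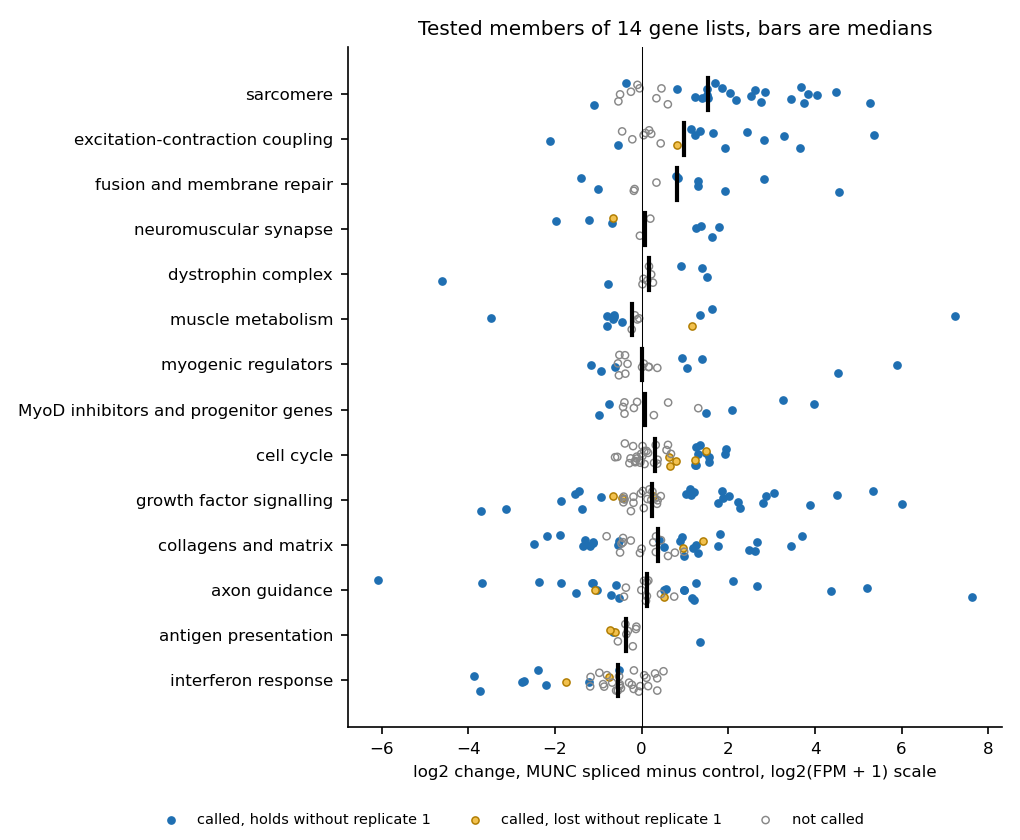
Each point is a tested member of 1 of 14 gene lists, placed by its log2(FPM + 1) difference, MUNC spliced minus control; blue points were called and held without replicate 1, yellow points were called and lost, open points were not called, and bars are list medians. The sarcomere list has the highest median, 1.54, with no yellow point, and the interferon list the lowest, -0.53.

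Among the largest calls lost without replicate 1, with a group mean of at least 5 FPM, were Egr2, Cdc6 and Lama2 on the higher side. Egr2, an immediate early transcription factor, was at 12.6, 8.68 and 5.66 against 56.7, 24.1 and 26.9 FPM (log2 difference 1.84, SE 0.57, limma adjusted p = 0.0152; 1.47 and limma adjusted p = 0.0709 without replicate 1). Lama2, a laminin chain of the muscle basement membrane, was at 3.38, 3.18 and 5.76 against 22.3, 7.02 and 11.7 FPM (log2 difference 1.42, SE 0.40, limma adjusted p = 0.00846; 1.02 and limma adjusted p = 0.0511 without it). Replicate 1 was by far the highest in these 2 genes and in Cdc6. On the lower side were the interferon-induced Tgtp1 and Irf7, the microtubule protein gene Mapt and the matrix gene Efemp1, with differences of -1.82, -1.74, -1.35 and -1.29, and of -1.26, -1.46, -1.05 and -1.12 without replicate 1. In all 4 replicate 1 was the lowest library.

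Of the called genes whose mean FPM differed most between the groups, 5 in each direction, the higher ones were matrix genes and H19. Sparc, a collagen-binding glycoprotein, rose from 3036, 2946 and 2774 to 7288, 7368 and 6975 FPM (log2 difference 1.30, SE 0.22, limma adjusted p = 2.06e-04), 2.47-fold by the means. Col1a2 rose from 3468, 3730 and 3912 to 6847, 6345 and 7209 FPM (log2 difference 0.88, SE 0.22, limma adjusted p = 0.00494) and Col1a1 from 1689, 1849 and 2246 to 4009, 3400 and 3806 FPM (log2 difference 0.96, SE 0.31, limma adjusted p = 0.0205). The Col1a1 difference was 0.91 without replicate 1 and then just missed the threshold (limma adjusted p = 0.0553). Bgn, the proteoglycan biglycan, was the exception in its order of libraries: replicate 1 was the lowest MUNC spliced library and close to the control libraries, at 3505, 3383 and 3371 against 3513, 5297 and 6197 FPM, and the difference of 0.51 (SE 0.20, limma adjusted p = 0.0465) was 0.74 without it. H19, a noncoding RNA next to Igf2, was at 527, 1124 and 1657 against 4892, 3745 and 2640 FPM (log2 difference 1.87, SE 0.55, limma adjusted p = 0.012).

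On the lower side were Eef1a1 and Eef2, the elongation factors of translation, Tpt1, a growth-related protein gene, the glycolytic enzyme gene Aldoa and Ly6e. Eef1a1 fell from 9735, 8352 and 8296 to 5735, 5411 and 5359 FPM (log2 difference -0.67, SE 0.18, limma adjusted p = 0.00581), and Eef2 from 4768, 4343 and 4702 to 2965, 2817 and 3192 FPM (log2 difference -0.62, SE 0.19, limma adjusted p = 0.0141). Ly6e, an interferon-inducible surface protein, fell from 2201, 1973 and 1878 to 364, 564 and 487 FPM (log2 difference -2.12, SE 0.19, limma adjusted p = 3.47e-07), and Aldoa and Tpt1 fell by 1.09 and 0.89. All 5 held without replicate 1.

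The same lines in growth medium share no library with the comparison in differentiation medium. There 2530 genes (18.2%) were higher and 2399 (17.3%) lower in the MUNC spliced line. Of the genes higher in differentiation medium 1534 (49.7%) were also higher in growth medium, which is 60.6% of the latter list, and of the lower genes 1265 (43.4%) were also lower, 52.7% of the latter list. Opposite calls were made for 83 and 64 genes. The difference between the 2 media was tested directly as an interaction and passed for 1993 genes (14.4%), 1030 (7.43%) in the higher and 963 (6.94%) in the lower direction. It passed for 744 of the genes higher and 692 of the genes lower in differentiation medium.

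Muscle genes were among those in which the difference itself differed between media. Sarcomere genes had 10 higher and 2 lower calls in growth medium, and 8 interactions in the higher direction and 1 in the lower. Acta1 was at 19.7, 11.18 and 31 FPM in control and 5.55, 4.82 and 20.5 FPM in MUNC spliced libraries in growth medium. The groups overlapped there, and the difference of -1.10 did not pass the test (limma adjusted p = 0.159). In differentiation medium the Acta1 difference was 4.06 (interaction 5.16, limma adjusted p = 0.00132). Myh3 was at 0.358, 0.354 and 0.215 against 1.44, 2.48 and 4.63 FPM in growth medium, a difference of 1.47 (interaction 3.80, limma adjusted p = 0.00284). Myod1, by contrast, was higher in both media, at 0.0854, 0 and 0 against 17.9, 8.84 and 10.5 FPM in growth medium, and its interaction of 0.88 did not pass (limma adjusted p = 0.32). Its difference in growth medium was 3.65. Chrna1 and Lrp4 differed less in differentiation medium than in growth medium, with interactions of -1.87 and -1.29. The 14 replication genes had 0 higher and 1 lower call in growth medium and 11 interactions in the higher direction. That group was drawn after the values were seen. The whole list of 42 cell cycle genes had 13 interactions in the higher direction and 0 in the lower. The interferon list had 22 lower calls in growth medium, with a median of -1.46, and 2 interactions in each direction.

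The genomic form of MUNC was compared with the spliced form directly in differentiation medium, where 3247 genes (23.4%) were higher and 2888 (20.8%) lower in the spliced line, 44.2% in all. Against the same control libraries the genomic line had 40.3% of genes called, 19.3% higher and 20.9% lower. Myod1 did not differ beyond the spread between the 2 lines: it was at 18.1, 22.5 and 14.5 FPM with the genomic form, and the spliced minus genomic difference was 0.40 (limma adjusted p = 0.451). Myog was higher with the spliced form, at 7.89, 14.7 and 6.50 FPM in the genomic line (2.98, limma adjusted p = 5.14e-05), as was Mymk, at 0.693, 2.17 and 1.41 FPM (3.35, limma adjusted p = 3.67e-06). Musk went the other way, at 37, 52.2 and 54 FPM with the genomic form (-3.40, limma adjusted p = 9.17e-11). Of the 31 tested sarcomere genes 15 were higher and 5 lower with the spliced form, and 12 and 9 without replicate 1. Fndc1, Nsg1 and Car3 were higher with the spliced form, by 9.62, 5.58 and 6.75, whereas Sema3c, at 337, 324 and 234 FPM in the genomic line, differed by -0.04 (limma adjusted p = 0.952). Of the 36 interferon genes 34 were higher with the spliced than with the genomic form. Against control the median of that list was -5.16 in the genomic line and -0.53 in the spliced line.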

How the data were processed

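Poly(A) RNA of 18 C2C12 cultures was sequenced, and the 6 libraries of the MUNC spliced and control lines in differentiation medium were compared. Reads were aligned with STAR to mm10, counted per gene with HTSeq and normalized with DESeq2, per the submitters' processing notes, which give no version. The deposited table holds a normalized signal in FPM per gene. From its steps whole reads were recovered for 100% of the values, with a maximum deviation of 0.0345 reads. The authors' deposited comparison table gives log2 fold changes and p-values, and its score columns (base mean and test statistic) were not used. Strand was not given in the sources used here, so antisense partners, overlapping genes and near-identical copies are uncertain.

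Genes were kept where 3 or more of the 18 libraries had at least 0.5 FPM, and log2(FPM + 1) was fitted with limma 3.58.1 (R 4.3.3) over all groups, with 12 residual degrees of freedom, moderated variances and Benjamini-Hochberg adjustment over 13869 genes at 0.05. "Held" means called in the same direction without MUNC spliced replicate 1. Group means and fold changes are of FPM. With biological replicates of unstated origin, p-values measure the spread between these cultures. edgeR 4.0.16 and DESeq2 1.42.0 on the recovered reads, other pseudocounts, filters, scalings and left-out libraries were alternatives. Scripts were tested on simulated data.

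The members and gene lists were chosen with earlier results of these data known. Genes named in the text are Myod1, Myog and Myh3; the 12 largest calls in each direction with a group mean of at least 5 FPM; the first 2 and up to 4 called genes of each list; the 4 largest lost calls and the 5 largest FPM differences in each direction. The 12 largest calls also had to hold without replicate 1 and to have groups that did not overlap, with predicted gene models left out. Other list members are named with their values to describe their list, and were chosen after the values were seen. Some genes that these rules name are not reported here. Replication, mitosis, ribosomal protein and imprinted genes were also grouped after the values were seen. Same-numbered libraries of the 2 groups deviated together from their group means (r = 0.264, 0.171 and 0.340), while differently numbered ones gave r = -0.371 to 0.159. The replicate numbers were therefore taken as a possible pairing, and a fit with the number as a block was run. Calls, SEs and p-values in the text come from the fit without the block unless a block is named. Symbols that a spreadsheet had turned into dates, 27 in all, were matched by gene ID. Gene positions came from GENCODE M21 (34490 of 35275 IDs matched) and promoter windows from a RefSeq table of GRCm38.p6.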

Additional observations from a re-analysis of the deposited data

Results flagged for a closer look

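The difference between the MUNC spliced and control lines was itself different in the 2 media for 1993 genes by a limma interaction test, and 42 of these are genes named in the text. Values are differentiation medium minus growth medium, on the log2(FPM + 1) scale. The muscle genes gave 3.80 for Myh3, 5.16 for Acta1, 2.84 for Actc1, 3.88 for Mybph, 2.35 for Ryr1, 1.58 for Ckm, 3.61 for Mymk, 2.12 for Mymx, 1.31 for Trim72, 1.24 for Dok7 and 2.64 for Myog. The smooth muscle marker Tagln, which was not called in differentiation medium, gave 2.00. On the recovered reads edgeR did not call the interactions of Myog, Mybph, Mymk, Mymx, Trim72, Actc1 and Ckm. With a pseudocount of 0.1 those of Myog and Trim72 did not pass, and that of Tagln was lost without MUNC spliced replicate 1. For these genes a larger difference in differentiation medium thus depends on the scale, the test or that library. Chrna1 gave -1.87 and Lrp4 -1.29.

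Secreted and growth factor genes gave 3.76 for Igf2, 3.04 for Igf1, 1.63 for Bmp4, 1.52 for Rspo3, 1.71 for Fndc1, 2.42 for Prelp and 2.53 for Ptx3. Spry1 gave 2.78, Nsg1 1.42, Id2 2.35, Krt14 2.28 and Psmb8 1.14. The cell cycle genes Mcm5, Ccne2, Mcm4 and Cdc6 gave 2.40, 2.07, 1.55 and 2.07. The neurofilament genes Nefm and Nefl, lower in both media, gave 4.86 and 2.60.

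Negative values came from genes that fell further in differentiation medium or, for Efemp1, were higher in growth medium: Phex -3.07, Itgb7 -2.17, Acsbg1 -2.91, Bdkrb2 -2.62, Plekhb1 -2.39, Ppargc1a -2.82, Ccl5 -2.45, Oasl1 -1.29, Ly6e -0.94 and Efemp1 -2.83. Of the 42 named genes 21 were also called in the same direction by edgeR on the recovered reads, 33 with a pseudocount of 0.1 and 36 without MUNC spliced replicate 1, and 17 in all 3. For 2 genes, Psmb8 and Rspo3, edgeR gave the opposite sign without a call, and for Myog it gave 0.05. Beyond the library correlations and the fits that left out 1 library, groups of 3 libraries were not screened gene by gene for single outlying libraries.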

How the results depend on the processing

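Of 107 named genes that were called, 87 kept their call in every alternative fit that held them, and a gene absent from a fit was passed over. The threshold of 1 on the log2 difference and edgeR without MUNC spliced replicate 1 were not applied to named genes. The genes with the largest differences were chosen because they held without that replicate, and the lost calls because they did not. For these genes the fit without it is no test. With the replicate number as a block 7396 genes were called (3760 higher, 3636 lower), 6000 of the 6001 calls of the unblocked fit among them. Of the named genes the pairing added 2 calls, Id1 at 1.31 and Tagln at 1.07, lost none, and changed no other call. Leaving out 1 of the 6 libraries gave 4867 to 5750 calls (2497 to 2964 higher, 2369 to 2786 lower), fewest without control replicate 2. Requiring an absolute log2 difference of at least 1 left 1555 genes, 841 higher and 714 lower. edgeR on the recovered reads called 3133 higher and 2759 lower, and DESeq2 3281 and 2944. The higher share of calls was 51.5% in the main fit, 56.5% with equal library sums, where the median of all genes moved by 0.04, and 49.1% with quantile normalization, where lower calls were in the majority. The interaction had 635 lower calls under edgeR against 963. Without MUNC spliced replicate 1 it had 733 higher and 705 lower calls. Alternatives chosen after seeing the data were edgeR without that replicate (2743 higher, 2442 lower), edgeR for the interaction and for growth medium, and a pseudocount of 0.1 for the interaction. Of the uncalled genes chosen by the naming rule 4 turned sign, as did other mitosis genes such as Ccnb1. Leaving out 1 library, Mki67 (0.15) ranged from -0.53 (without MUNC spliced replicate 1) to 0.54, and was -0.085 without control replicate 2. Top2a (0.36) ranged from -0.38 (without MUNC spliced replicate 1) to 0.73, H2-K1 (-0.13) from -0.26 to 0.041 (without MUNC spliced replicate 1), and Sema3a (0.12) from -0.013 (without control replicate 1) to 0.26. The cause was not tested. At these depths 3 reads correspond to 0.0523 to 0.0592 FPM, so genes near 0 in 1 group have differences that depend on the added 1. The list medians do too: the sarcomere median was 2.85 by edgeR.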

Other observations

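Ribosomal protein genes, grouped after their values were seen, were lower in the MUNC spliced line in differentiation medium. Of 88 genes 83 were tested, 0 were called higher and 60 lower, and all 60 held without MUNC spliced replicate 1. At an unadjusted p under 0.05 limma had 0 higher and 68 lower, and on the recovered reads edgeR called 0 higher and 58 lower and DESeq2 0 higher and 60 lower. The median was -0.68, and -0.75 without that library, with differences from -1.22 to 0.09, against a median of 0.01 and 21% called lower over all tested genes. Rpl28, a protein of the large subunit, was at 452, 412 and 404 FPM in control and 191, 192 and 159.6 FPM in MUNC spliced libraries (log2 difference -1.22, SE 0.13, limma adjusted p = 2.31e-06), without overlap. In growth medium 57 of the 83 were called lower and 0 higher. The elongation factor genes Eef1a1 and Eef2 and Tpt1, given above, fell in the same libraries. Library by library the median below the control mean was -0.49, -0.62 and -0.84 in replicates 1, 2 and 3, so replicate 1 was nearest to the control libraries. Ribosomal protein genes have many processed copies in the genome, so counts of single genes are uncertain.

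Imprinted genes, also grouped after the values were seen, moved in both directions. Of 26 genes 17 were tested, 4 were called higher and 3 lower, shares near the 22.3% and 21% of all tested genes. Igf2 and H19, neighbours that are expressed from opposite parental copies, were both higher, as was Ddc, while Grb10 was higher only with replicate 1 included. Sgce and Peg10, which share a promoter region on chromosome 6 and are both paternally expressed, were both lower: Peg10 was at 18.6, 9.29 and 11.1 FPM in control and 1.33, 0.122 and 0.0904 FPM in MUNC spliced libraries (log2 difference -3.25, SE 0.29, limma adjusted p = 2.40e-07). Igf2r, expressed from the maternal copy in mice, was lower by 1.54.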
